A study of Saccharomyces cerevisiae with 16 samples.

Results

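FIT3 (YOR383C), ENB1 (YOL158C), SMF3 (YLR034C) and COT1 (YOR316C) are 4 genes of Saccharomyces cerevisiae that handle siderophore-bound iron at the cell surface or move metals across the vacuolar membrane. They are 4 of the 3127 genes measured on the slides of this series, and each had 1 spot that named it alone, of 6912 spots in all. They were taken by name, because an earlier treatment of the same data had called their mean over all times. That mean and its parts at each single time are therefore given as values with no test.

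Treated cells were of the wild-type strain CDY59, grown in YPD rich medium and then in 200 mM hydroxyurea over 1, 2, 4 or 6 h. They were set against untreated CDY59 in YPD, taken at an optical density of 0.5, and both RNAs shared a 2-colour slide. Every time had 2 slides of opposite orientation, so that channel 1 held the treated RNA on one slide and the untreated RNA on the other. Each of the 8 slides had 2 readings, titled faible and fort (French for weak and strong), which are not replicates and were averaged. The labels name no untreated culture kept for matching hours, so drug and growth time cannot be told apart, nor do the labels say whether slides held separate cultures. RNA came from whole cultures, so fewer cells with a transcript and less of it per cell cannot be told apart.

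Yeast takes up iron by reducing it at the cell surface and by importing siderophores, iron chelators that other microbes secrete. The activators Aft1 and Aft2 switch on the genes of both routes, and genes that release iron stored in the vacuole, when iron is short. Hydroxyurea inhibits ribonucleotide reductase, whose small subunit holds an iron centre. It quenches the tyrosyl radical that this centre makes.

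Values are log2 ratios of treated over untreated RNA, and 0 is the median gene of a reading. The base of the deposited logarithm is not stated and was taken as 2, so folds would be larger if it is natural. The labels name no numerator either. The direction was set so that the hydroxyurea-induced genes RNR2 and RNR4, which stood at 2.69 ± 0.34 and 2.55 ± 0.25 in the mean over the times, are positive, and it is likely rather than established. RNR4 was above 0 on 8 of 8 slides and RNR2 on 7 of 8. On the channel 1 slide of 1 h they stood at -0.98 (RNR2) and 0.14 (RNR4), against 3.56 and 2.42 on the channel 2 slide of that time. Their orientation effects, channel 1 minus channel 2, were -2 ± 0.67 and -1.65 ± 0.50 (adjusted p = 0.0701 and 0.055 by limma). Errors written with ± are standard errors of the limma model unless another is named. Across genes, the correlation of the 2 slides of a time was -0.0809 for 1 h, -0.0339 for 2 h, 0.504 for 4 h and 0.579 for 6 h. The 1 h and 2 h values thus rest on slides that did not resemble each other. With 2 slides a time, their number limits the precision, and the median standard error of a single time was 0.18.

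FIT3 codes for a mannoprotein anchored in the cell wall, where it helps to retain siderophore-bound iron. With treated RNA in channel 1, the ratios were 0.81, 2.56, 2.36 and 2.36 from 1 h to 6 h. With treated RNA in channel 2, they were 0.60, 1.21, 1.62 and 2.33. All 8 slides were above 0, and both 1 h slides lay below the lowest of the other 6. The 2 slides of a time were furthest apart at 2 h, by 1.35, and closest at 6 h, by 0.03. The model put the 4 times at 0.70, 1.88, 1.99 and 2.34, each ± 0.23. Its mean over the times was 1.73 ± 0.12, a 3.32-fold ratio if the base is 2, and it ranked 7 of 3127 genes. By time it ranked 46, 16, 5 and 7 from the highest.

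ENB1 codes for the plasma membrane transporter of enterobactin, a siderophore made by enteric bacteria. With the treated RNA in channel 1 it had 0.84, 1.17, 0.89 and 0.76 from 1 h to 6 h. With it in channel 2 it had 0.92, 1.13, -0.12 and 0.27. The slides of 1 h and of 2 h lay within 0.07 and 0.03 of each other, although slides of these times did not resemble each other across all genes. Those of 4 h and 6 h were 1.01 and 0.49 apart, and the channel 2 slide of 4 h was the 1 slide of 8 below 0. The model gave 0.88, 1.15, 0.38 and 0.51 from 1 h to 6 h, each ± 0.21, and a mean of 0.73 ± 0.11, a 1.66-fold ratio. ENB1 ranked 23, 63, 187 and 185 from the highest at the 4 times.

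SMF3 codes for a vacuolar membrane transporter of the Nramp family that exports stored iron to the cytosol. With treated RNA in channel 1 the values were 0.32, 0.29, 1.28 and 1.19 from 1 h to 6 h. With treated RNA in channel 2 the values were 0.83, 1.21, 0.74 and 1.69. All 8 slides were above 0, and the channel 2 slide was the higher of the pair at 1, 2 and 6 h but not at 4 h. The model gave 0.57, 0.74, 1.01 and 1.44 from 1 h to 6 h, each ± 0.24, and a mean of 0.94 ± 0.12, a 1.92-fold ratio. SMF3 ranked 71, 181, 20 and 18 from the highest at the 4 times.

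COT1 codes for a vacuolar transporter that loads zinc and cobalt into the vacuole. It stood at 0.33, 0.03, 0.82 and 0.34 on the channel 1 slides of 1, 2, 4 and 6 h, and at 0.34, 0.51, 0.18 and 0.51 on the channel 2 slides. All 8 slides were above 0, but the channel 1 slide of 2 h was at the level of the median gene. The model gave 0.34, 0.27, 0.50 and 0.42, each ± 0.21, and a mean of 0.38 ± 0.10, a 1.30-fold ratio. COT1 had the smallest mean of the 4 genes and ranked 152 of 3127.

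**Figure D1:**
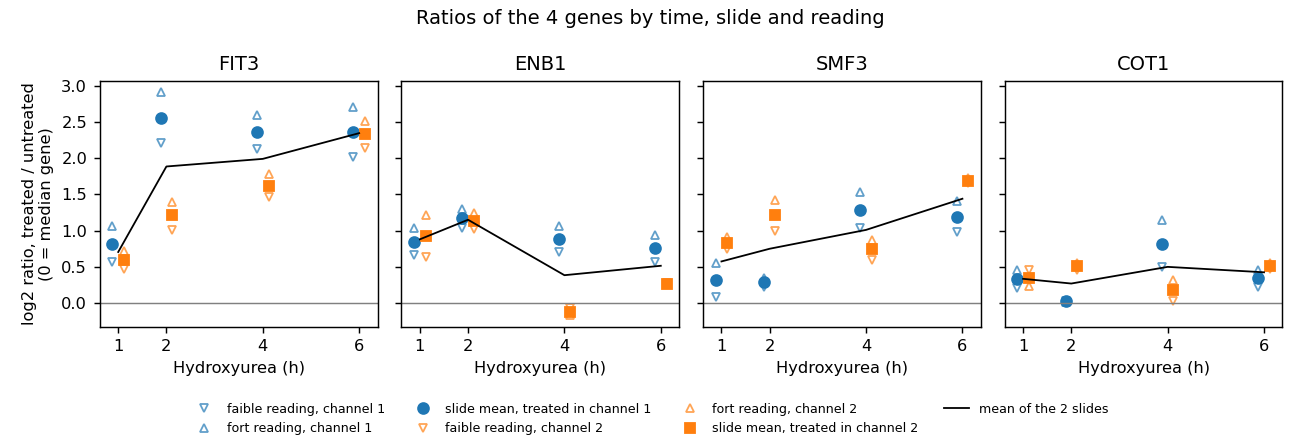
log2 ratio of treated over untreated RNA (vertical axis, 0 is the median gene) against hours in hydroxyurea (horizontal axis, to scale) for FIT3, ENB1, SMF3 and COT1. Filled symbols are slides (circles with treated RNA in channel 1, squares in channel 2), open triangles are the faible and fort readings of a slide, and the line joins the means of the 2 slides. The FIT3 slides sit at 0.60 and 0.81 at 1 h and between 1.21 and 2.56 later, while the COT1 slides stay between 0.03 and 0.82.

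All 4 means over the times had been called higher, as had 6.97% of the 3127 genes. This count is fixed by the choice of genes. The 3 of 4 genes above 0 on all 8 slides, as 3.93% of all genes were, are not independent of that choice. COT1 lies just inside that call with a mean of 0.38. The call would not have chosen COT1 in 9 of 19 alternatives, 6 of which left out a single slide, namely either slide of 1 h or 6 h, the channel 2 slide of 2 h or the channel 1 slide of 4 h. Its mean was then 0.27 to 0.41. Just outside the choice lies FRE6 (YLL051C), at 0.34 ± 0.08, which was called too and is described with the vacuolar genes. TIS11 (YLR136C), an iron-regulated RNA-binding protein, stood at 0.28 and MRS4 (YKR052C), a mitochondrial iron carrier, at 0.26. Neither of these passed.

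The differences between times use no part of the mean that chose the genes, and they address whether the response grew or faded over the treatment. A call favours genes with a small spread between slides. That spread also enters the errors, intervals and p-values of the differences between times and orientations, which are thus not free of the choice. FIT3 averaged higher at 4 and 6 h than at 1 and 2 h by 0.87 ± 0.23 (95% interval 0.33 to 1.41), and 6 of the 3127 genes had a larger difference. Its late slides stood at 2.36, 1.62, 2.36 and 2.33 and its early slides at 0.81, 0.60, 2.56 and 1.21, so the groups overlapped through the channel 1 slide of 2 h. The difference did not pass in limma after Benjamini-Hochberg adjustment over all genes (adjusted p = 0.141). For this contrast limma called 0 of 3127 genes (0%), while 549 had an unadjusted p under 0.05. Once that 2 h slide was left out, the FIT3 difference was 1.13. With any other single slide left out it was 0.62 to 1.06. Without an orientation term it was 0.87 and did not pass (adjusted p = 0.627 by limma). On values as deposited it was 1.26 (adjusted p = 0.00196 by limma), where the median gene itself differed by 0.36 and 78 of the 3127 genes passed.

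SMF3 was higher late than early by 0.56 ± 0.24 (95% interval 0.01 to 1.12), with an adjusted p = 0.283 by limma. Its 4 late slides stood between 0.74 and 1.69 and its early slides between 0.29 and 1.21. The difference passed on values as deposited (0.95, adjusted p = 0.0384) and after quantile normalization (0.85, adjusted p = 0.0449). Under these settings 78 and 66 of the 3127 genes passed. ENB1 ran the other way, with a late minus early difference of -0.57 ± 0.21 (95% interval -1.06 to -0.08, adjusted p = 0.243). On values as deposited it was -0.18 (adjusted p = 0.668). As centred, 90.6% of all genes had a higher value in this difference than ENB1. Its late slides stood between -0.12 and 0.89 and its early slides between 0.84 and 1.17, so 1 late slide reached into the early range. COT1 differed by 0.16 ± 0.21 (95% interval -0.32 to 0.64, adjusted p = 0.684), and the sign turned to -0.06 when the channel 1 slide of 4 h was left out. None of the 4 genes had every late slide above every early slide, as 3.45% of all genes did.

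By level, the FIT3 times ran 6 h, 4 h, 2 h and 1 h. The step from 1 h to 2 h was the widest between neighbours in that order, at 1.18 ± 0.33 (95% interval 0.41 to 1.94, adjusted p = 0.272 by limma). The steps from 2 h to 4 h and from 4 h to 6 h were 0.11 ± 0.33 and 0.35 ± 0.33. Their 95% intervals, -0.66 to 0.87 and -0.41 to 1.12, both included 0. From 1 h to 6 h FIT3 differed by 1.64 ± 0.33 (95% interval 0.87 to 2.40), with an unadjusted p = 0.00118 and an adjusted p = 0.344. Here too limma called 0 of 3127 genes (0%), and 237 had an unadjusted p under 0.05. On values as deposited the FIT3 difference was 1.74 and passed (adjusted p = 0.00254 by limma), with a median gene at 0.11 and 20 of the 3127 genes passing.

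The SMF3 times ran in the same order, with steps of 0.17, 0.26 and 0.43, each ± 0.34, and a 6 h minus 1 h difference of 0.87 ± 0.34 (adjusted p = 0.625). ENB1 ran 2 h, 1 h, 6 h and 4 h, and its widest pair was 4 h against 2 h, at -0.76 ± 0.30 (adjusted p = 0.282). COT1 ran 4 h, 6 h, 1 h and 2 h, and its widest pair was 4 h against 2 h, at 0.23 ± 0.29 (adjusted p = 0.671). No pair of times passed for any of the 4 genes by limma, and 3 of 6 FIT3 pairs, 1 of ENB1, 1 of SMF3 and 0 of COT1 had an unadjusted p under 0.05. For all genes, the share called was 0.0320% for 2 h minus 1 h, 0.256% for 6 h minus 2 h and 0% for each of the other 4 pairs. By pair, from 38 (6 h minus 4 h) to 579 (6 h minus 2 h) of 3127 genes had an unadjusted p under 0.05. A joint F-test over the 4 times gave an adjusted p = 0.261 for FIT3, 0.521 for ENB1, 0.552 for SMF3 and 0.94 for COT1, and 0% of genes passed. A 95% interval for a difference of 2 times reached 0.77, 0.69, 0.79 and 0.68 to either side for FIT3, ENB1, SMF3 and COT1, so differences smaller than these lie within the error.

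**Figure D2:**
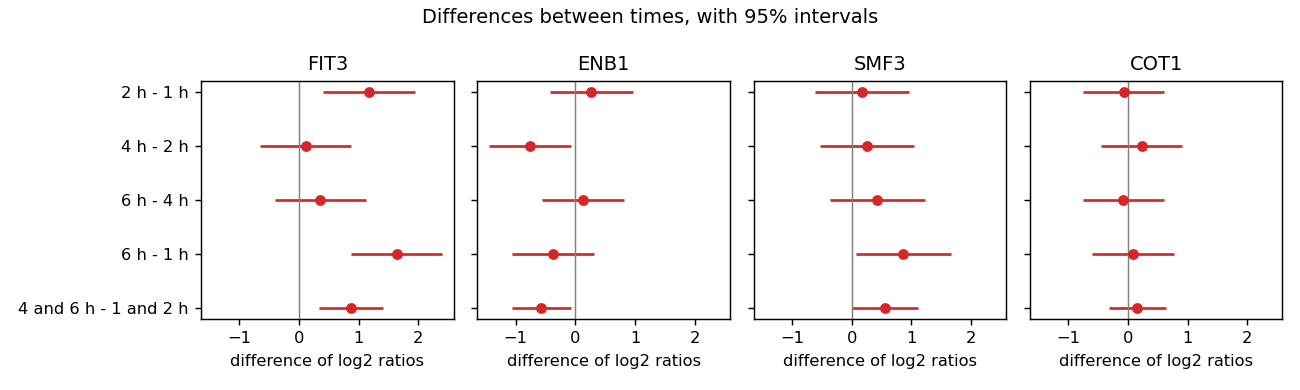
Differences of log2 ratios between times (horizontal axis) for FIT3, ENB1, SMF3 and COT1, with points for the limma estimate and bars for its unadjusted 95% interval. The last row sets the late times (4 and 6 h) against the early ones (1 and 2 h), at 0.87 for FIT3, -0.57 for ENB1, 0.56 for SMF3 and 0.16 for COT1, and no difference passed after adjustment over all genes.

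The 2 channel orientations differed for many genes, and 17.3% of the 3127 genes passed for this term in limma. The labels do not say whether slides held separate cultures, so channel and culture cannot be told apart here. FIT3 averaged 2.02 on the 4 slides with treated RNA in channel 1 and 1.44 on the 4 with it in channel 2, a difference of 0.59 ± 0.23 (adjusted p = 0.109). ENB1 averaged 0.91 and 0.55 on the same slides (difference 0.36 ± 0.21, adjusted p = 0.239). SMF3 averaged 0.77 and 1.11 (difference -0.34 ± 0.24, adjusted p = 0.327), and COT1 0.38 on both (difference -0.01 ± 0.21, adjusted p = 0.987). The level in each orientation is part of the mean that chose the genes and is given as a value alone. For the difference between orientations, 0 of the 4 passed in limma, with FIT3 at an unadjusted p = 0.0369. Of all 3127 genes, 1185 had an unadjusted p under 0.05 for it. FIT3 and ENB1 did pass in limma after quantile normalization, at 0.81 (adjusted p = 0.0337) and 0.68 (adjusted p = 0.0206). There 951 of the 3127 genes passed, against 540 as reported.

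The fort reading gave wider ratios than the faible reading. For FIT3 it was higher by 0.25 to 0.70 on all 8 slides, and for SMF3 by 0.06 to 0.50 on all 8. The gap ran from -0.10 to 0.58 for ENB1 and from -0.21 to 0.65 for COT1. Over all single-gene spots of a slide the standard deviation was 1.15 to 1.44 times as large in the fort reading, and 63.8% to 85.6% of spots lay further from 0 in it.

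All 4 means stayed positive in the alternatives other than the turned sign. This is no separate support, because that mean chose the genes and the alternatives reuse the same slides. Leaving out each slide in turn gave 1.60 to 1.86 for FIT3, 0.62 to 0.84 for ENB1, 0.79 to 1.09 for SMF3 and 0.27 to 0.49 for COT1. Slides of the 4 h and 6 h times by themselves gave 2.17, 0.45, 1.22 and 0.46. On values as deposited, where the median gene stood at 0.20, the means were 1.92, 0.92, 1.13 and 0.57.

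**Figure D3:**
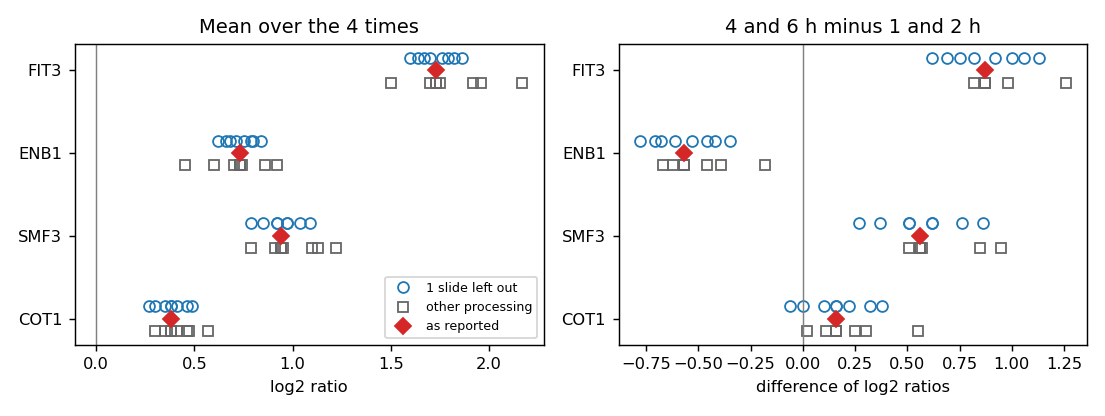
Values of FIT3, ENB1, SMF3 and COT1 as reported (diamonds), with 1 slide left out (circles) and under other processing (squares). The left panel shows the mean log2 ratio over the 4 times and the right panel the late minus early difference. The turned sign is not drawn, all means shown are above 0, and in the right panel COT1 reaches -0.06 with 1 slide left out.

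Pairs of the 4 genes varied together to different degrees over the slides. After each gene's mean within an orientation was removed, SMF3 and COT1 correlated at 0.754 over the 8 slides, and FIT3 and SMF3 at 0.555. ENB1 correlated at -0.335 with FIT3, -0.105 with SMF3 and 0.111 with COT1, and FIT3 with COT1 at 0.0681. These are descriptions over slides that each pair shares, with no test. Of 3126 other genes, 73 followed SMF3 more closely than COT1 did, and 377 followed FIT3 more closely than SMF3 did.

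The genes most like FIT3 by the same measure were FLR1 (0.977), BSC1 (0.948), SDH4 (0.943), NSE4 (0.932) and YOL036W (0.929). Their means over the times ran from 0.01 to 0.35, well below that of FIT3. They were picked for the highest correlation of 3126 genes over 8 slides, so a likeness in course is fixed by that choice. For ENB1 they were GSP2 (0.988), COR1 (0.973), CYC8 (0.970), ETT1 (0.967) and YHR054C (0.960). For SMF3 they were DYN1 (0.969), YDR476C (0.943), HST2 (0.936), GRE2 (0.932) and GRX2 (0.927), and for COT1 TGL5 (0.959), SSL1 (0.906), YJL213W (0.904), MTC4 (0.901) and CLP1 (0.874). None of these 20 nearest genes was a gene of metal transport or metal regulation in the lists described further on, and COR1 was in the list of iron-requiring enzymes. Together with iron-sulfur assembly, those metal lists held 38 measured genes beside FIT3, ENB1, SMF3 and COT1, of 3127 genes in all. With so small a share, finding none among 20 cannot tell whether metal genes ran together.

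None of the 3 measured relatives of the 4 genes (FIT2, SMF1 and ZRC1) rose in the mean by limma. FIT2 (YOR382W), another cell wall mannoprotein and the gene next to FIT3 in the R64 reference annotation, stood between -0.36 and 0.52 on the 8 slides. Its mean was 0.18 ± 0.09 (adjusted p = 0.2 by limma). FRE5 (YOR384W), a ferric reductase homologue on the other side of FIT3, stood at 0.08 ± 0.10. The measured neighbours of the other genes stood at 0.24 ± 0.07 (CSS3) and 0.15 ± 0.09 (IMA2) beside ENB1, -0.53 ± 0.10 (RSC58) beside SMF3 and -1.22 ± 0.14 (SFG1) beside COT1. SMF1 (YOL122C), the plasma membrane manganese transporter related to SMF3, had a mean of -0.23 ± 0.11 (adjusted p = 0.171). Its late slides stood between -0.85 and -0.39, and its early slides between -0.19 and 0.47, so that they did not overlap, as held for 3.33% of all genes in this direction. The late minus early difference of -0.80 ± 0.22 did not pass (adjusted p = 0.141). FIT1, ARN1, ARN2, SIT1 and SMF2 had no spot that named them alone and were not analysed here.

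ZRC1 (YMR243C), the vacuolar zinc transporter most like COT1, fell in the mean by limma, at -0.52 ± 0.08 (adjusted p = 0.0043). Its low values were all on slides of 1 orientation. It stood at -1.21, -0.70, -1.36 and -1.11 on the slides with treated RNA in channel 2, and at -0.04, 0.32, 0.09 and -0.13 with it in channel 1. The 2 orientations did not overlap, and ZRC1 passed for the orientation effect itself (1.15 ± 0.16, adjusted p = 0.0214). Without an orientation term its mean did not pass (adjusted p = 0.24), nor on values as deposited (-0.33, adjusted p = 0.052).

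The other genes of metal transport, iron-sulfur assembly and metal regulation numbered 38 measured of 74 listed. In the mean 2 of these 38 rose and 1 fell by limma, or 7.89%, against 18.8% of all genes called in either direction. Their median was 0.12, against 0.01 for all genes, and 30 of 38 (78.9%) were above 0, against 51.7% of all genes. A list unrelated to metals, of meiosis and sporulation genes, had a median of 0.15 with 3 of 4 measured genes above 0. On values as deposited, where the median gene stood at 0.20, 17 rose and 0 fell by limma, against 816 and 226 of all genes. In limma neither late minus early nor 6 h minus 1 h gave a call among the 38, and 9 and 2 of them had an unadjusted p under 0.05. The lists, like the 4 genes, were drawn up with earlier results of these data known.

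Of these, the vacuolar gene that rose was FRE6, a reductase that prepares stored iron for export, at 0.34 ± 0.08 (adjusted p = 0.0269 by limma). It is named because its value was seen, and it was above 0 on 7 of 8 slides. The call was lost in 8 of 19 alternatives, with an adjusted p of up to 0.193. FTH1 and CCC1, the other vacuolar iron transporters measured, stood at 0.12 and -0.03. The plasma membrane gene that rose was CTR1 (YPR124W), the high-affinity copper importer, at 0.52 ± 0.10 (adjusted p = 0.0125), with the 2 h slides highest at 1.02 and 1.43. From the slides of 4 h and 6 h alone CTR1 was at 0.23 and did not pass (adjusted p = 0.143). Nor did it pass when the channel 1 slide of 1 h (adjusted p = 0.0647) or the channel 2 slide of 6 h (adjusted p = 0.0689) was left out.

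Of 13 listed genes of reductive iron uptake, 6 were measured. None of the 6 passed by limma, and 0 of them had an unadjusted p under 0.05. They were FRE2, FRE3, FRE4, FRE5, FRE8 and the copper chaperone gene ATX1, with means from 0.07 to 0.27. FRE1, FRE7, FET3, FTR1, FET4, CCC2 and AKR1 had no spot that named them alone and were not analysed. The values thus cover this route only in part. The 11 genes of mitochondrial iron and iron-sulfur assembly ran from -0.19 to 0.26, with 0 passing and 3 at an unadjusted p under 0.05. The 9 regulators and regulated genes ran from 0.05 to 0.28, with 0 passing and 2 at an unadjusted p under 0.05. Of all 3127 genes, 18.8% passed in the mean by limma and 1037 had an unadjusted p under 0.05. AFT1 and AFT2 themselves stood at 0.16 ± 0.11 and 0.13 ± 0.09. FIT3, ENB1 and SMF3 thus lay above each of the other 38 genes in the mean, a ranking that the choice of the 4 genes favours. The 4 measured genes of meiosis and sporulation, a mark of another cell state, ran from -0.15 to 0.23, with 0 passing by limma and 1 at an unadjusted p under 0.05. In late minus early these 4 genes ran from 0.35 to 0.52. Their median there was 0.38, against 0.56 for SMF3 and -0.03 for all genes. The 6 genes of reductive iron uptake ran from -0.17 to 0.49 in that difference, with a median of 0.37. Neither list had a call for it by limma.

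Genes for enzymes and respiratory subunits that need iron, or work beside those that do, moved both ways. Of 24 measured of 33 listed, 3 rose and 7 fell by limma, against 6.97% of all genes that rose and 11.8% that fell, and their median was -0.14. The flavohemoglobin gene YHB1 rose by 1.28 ± 0.23 (adjusted p = 0.0082) and the fatty acid desaturase gene OLE1 by 0.75 ± 0.09 (adjusted p = 0.00122), though OLE1 was above 0 on 5 of 8 slides. YHB1 stood at 1.44, 4.54, 2.02 and 1.72 from 1 h to 6 h with treated RNA in channel 2, and at -0.72, 0.19, 0.60 and 0.45 with it in channel 1, so the orientations did not overlap. Both genes passed for orientation itself (-2.30 ± 0.46, adjusted p = 0.0249 for YHB1 and 0.76 ± 0.18, adjusted p = 0.0318 for OLE1). Without an orientation term YHB1 did not pass in the mean (adjusted p = 0.171). The glutamate synthase gene GLT1 fell, at -0.84 ± 0.12, as did the deoxyhypusine hydroxylase gene LIA1, at -0.70 ± 0.10 (adjusted p = 0.00332 each). LIA1 was below 0 on 8 of 8 slides, as were 4.57% of all genes.

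The sphingolipid hydroxylase gene SCS7, the ribosome recycling gene RLI1, and RIP1 and COR1 of the respiratory chain fell too, at -0.55, -0.54, -0.51 and -0.39 (adjusted p from 0.0172 to 0.0432). RLI1 passed for orientation too (-1.09 ± 0.27, adjusted p = 0.0355), with values from -1.46 to -0.73 with treated RNA in channel 1 and from -0.43 to 0.71 with it in channel 2. The cytochrome genes CYC7 (0.33) and CYT1 (-0.31) complete the 10 calls, and both are named because their values were seen. SCS7, RLI1, RIP1, COR1, CYC7 and CYT1 lost the call in 4, 7, 11, 8, 8 and 13 of 19 alternatives. On values as deposited 6 of the 24 rose and 5 fell, and the median of the list turned to 0.04.

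**Figure D4:**
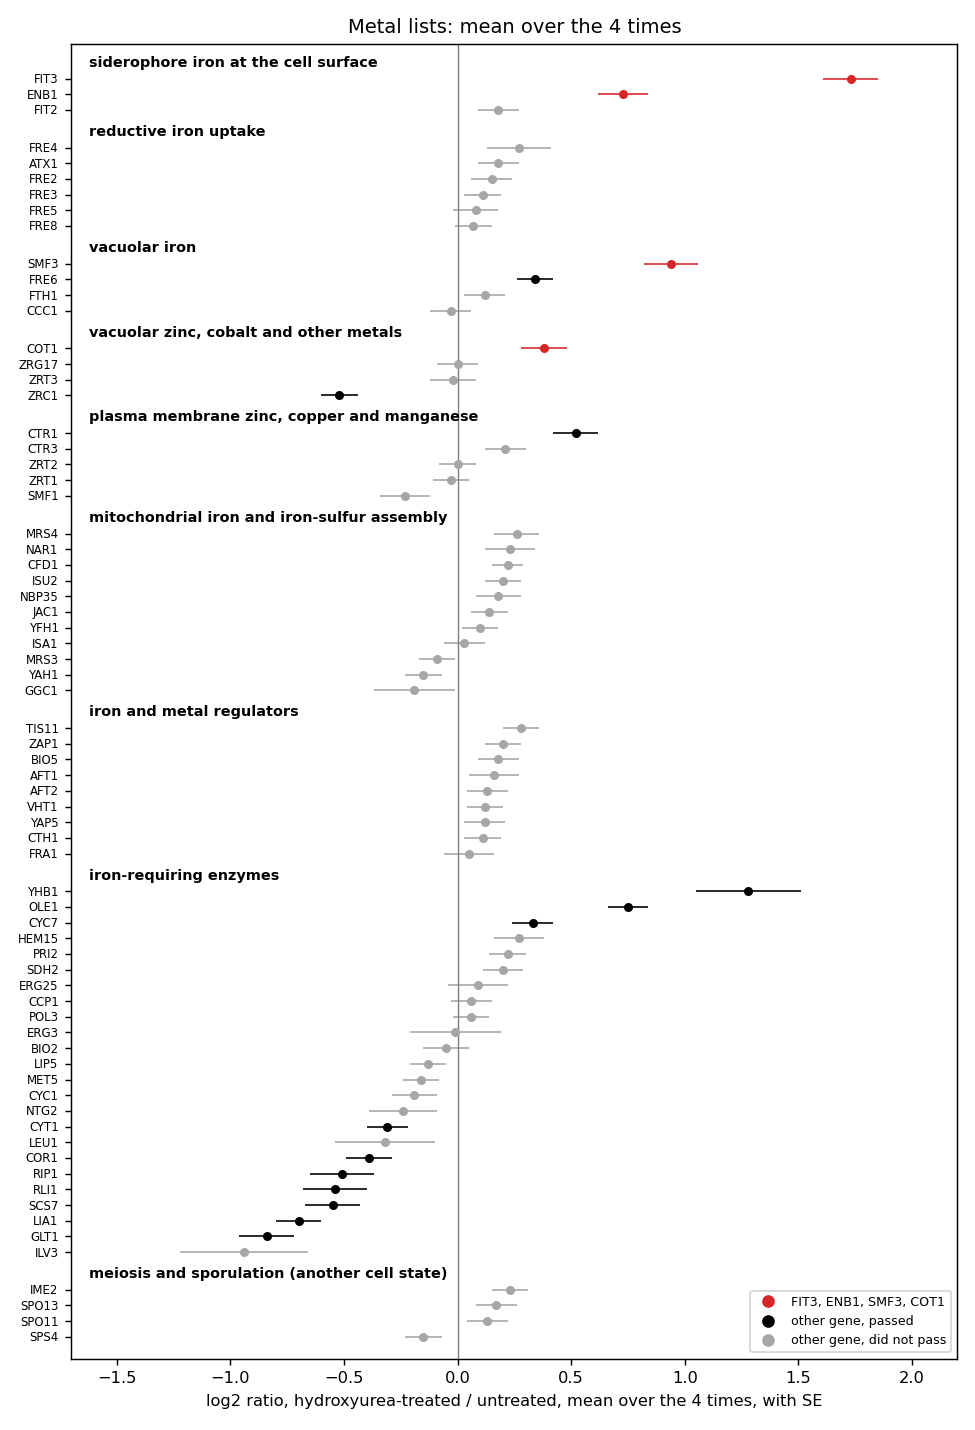
Mean log2 ratio of treated over untreated RNA over the 4 times (horizontal axis) with its standard error, grouped by list. Drawn are the measured genes of the metal lists, of the iron-requiring enzymes and of the meiosis and sporulation list. Red marks FIT3, ENB1, SMF3 and COT1, black marks other genes that passed in limma, and grey marks genes that did not. FIT3 at 1.73 and SMF3 at 0.94 lie furthest to the right among the transport genes, and ZRC1 at -0.52 furthest to the left.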

How the data were processed

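Total RNA was purified by RNeasy and labelled indirectly, per the labels. The authors deposited 1 log ratio of the 2 channels per spot and reading (base taken as log2). The image software and any normalization are not given in the sources used here. The readings had medians between -1.03 and 0.45, hence were not centred as deposited. Channel intensities were not used here, so intensity-dependent bias was not corrected.

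Slides were turned to treated over untreated, with channel 1 over channel 2 taken as the sign that makes RNR2 and RNR4 positive (2 measured of 4 genes set for this). The median of the 3344 spots that name 1 gene was subtracted from every reading, then readings were averaged within slides and spots within genes. No filter on low values was used. A model with 4 time coefficients and 1 orientation term was fitted with limma 3.58.1 (R 4.3.3), leaving 3 residual degrees of freedom beside a prior of 4.89. P-values were two-sided and adjusted by Benjamini-Hochberg over 3127 genes, with a threshold of 0.05. The model was tested on simulated data. P-values measure only the spread between slides, which may be technical.

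The members and lists were chosen with earlier results of these data known. Named beside the 4 members were their family, the list genes that passed (at most the 10 largest per comparison), the 5 genes most like each member, and the genes that set the direction. Any further gene was named after its values were seen. Alternatives were other centrings, either reading alone, the median of spots, no orientation term, array weights, robust variances, each slide left out, and the turned sign. The 4 h and 6 h slides alone were added after the data were seen. Gene names came from the platform annotation, and 3343 of the 3344 spots were matched to the R64 reference. Genome positions are left out because the slide's build is not given in the sources used here.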

Additional observations from a re-analysis of the deposited data

How the results depend on the processing

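No paired analysis was possible because the labels give the times no shared replicate numbers, so that slides of different times cannot be matched. With the sign turned, each value is its own negative. The means became -1.73 for FIT3, -0.73 for ENB1, -0.94 for SMF3 and -0.38 for COT1. Late minus early became -0.87, 0.57, -0.56 and -0.16, 6 h minus 1 h -1.64, 0.37, -0.87 and -0.09, and the orientation effect -0.59, -0.36, 0.34 and 0.01, for the same genes. YHB1, OLE1, CTR1, FRE6 and CYC7 became -1.28, -0.75, -0.52, -0.34 and -0.33. GLT1, LIA1, SCS7, RLI1, ZRC1, RIP1, COR1 and CYT1 became 0.84, 0.70, 0.55, 0.54, 0.52, 0.51, 0.39 and 0.31.

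Without that turn, the mean of each of the 4 genes stayed above 0 in 18 of 18 alternatives. The choice of the genes favours this, and the alternatives share their slides. Array weights left the 4 means unchanged as rounded. The median of spots, no orientation term and robust variances could not move them. Each gene had 1 spot, each time held both orientations, and robust variances alter the errors alone. Those settings thus add nothing to the 18 of 18. FIT3 passed late minus early at 1.26 and 6 h minus 1 h at 1.74 on values as deposited, and orientation at 0.81 after quantile normalization. SMF3 passed late minus early at 0.95 on values as deposited and at 0.85 after quantile normalization, and ENB1 passed orientation at 0.68 there. With 1 slide left out, late minus early ran from 0.62 to 1.13 for FIT3, -0.78 to -0.35 for ENB1, 0.27 to 0.86 for SMF3 and -0.06 to 0.38 for COT1. The extremes came without the 4 h slides for ENB1 and SMF3. For 6 h minus 1 h the ranges were 1.27 to 2.01, -0.66 to -0.08, 0.76 to 0.97 and -0.03 to 0.20, and for orientation 0.33 to 0.77, 0.15 to 0.51, -0.64 to -0.15 and -0.22 to 0.15, in the same gene order. The orientation effect of COT1 was 0.12 after quantile normalization, 0.10 on the fort readings, 0.13 with array weights and 0.24 from the slides of 4 h and 6 h, where that of SMF3 was 0.03. Values as deposited gave 2 calls among the 24 pairs of times, against 0. The joint F-test of FIT3 passed as deposited (adjusted p = 0.00224) and after leaving out the channel 1 slide of 2 h (adjusted p = 0.0478).

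Over all genes, 587 passed in the mean, against 1042 as deposited, 255 with no orientation term, 1417 from the slides of 4 h and 6 h (1 residual degree of freedom) and 241 to 814 with 1 slide left out. Late minus early gave 0, against 78 as deposited, 66 after quantile normalization and 0 to 137 with 1 slide left out, the most after leaving out the channel 1 slide of 2 h. For 6 h minus 1 h, 0 stood against 20 as deposited, 2 after quantile normalization, 1 on the fort readings and 0 to 4 with 1 slide left out. Orientation gave 540, against 352 centred on all spots, 951 after quantile normalization, 347 on the faible readings, 228 on the 4 h and 6 h slides and 0 to 280 with 1 slide left out. Of the 38 other metal genes 3 passed in the mean, against 17 as deposited, 5 after quantile normalization, 1 with no orientation term, 18 on the 4 h and 6 h slides and 1 to 4 with 1 slide left out, the fewest after leaving out the channel 1 slide of 1 h or the channel 2 slide of 6 h. The cause of these changes was not tested. Signal over background is unknown, since only ratios were given.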
